A study of Rattus norvegicus with 19 samples.

Results

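The 10 genes described here are markers of tubular injury and repair in the kidney: Havcr1, Il24, Lcn2, Clu, Spp1, Cd44, Vcam1, Timp1, Sox9 and Tff3. They were chosen by name, with earlier results of these data known. Every non-control probe whose gene name in the scanner files was one of them was taken. This gave 16 of 45598 probe names and 10 of 24217 genes tested. The RNA came from the renal cortex of 19 rats, male Crl:CD (SD), and each rat had 1 single-colour Agilent array. The 7 DKD+enarodustat rats were injected intravenously with 65 mg/kg of streptozotocin, which destroys the insulin-producing beta cells, and then ate feed with 0.01% (w/w) of enarodustat. This compound blocks prolyl hydroxylases, the enzymes through which hypoxia-inducible factor is marked for degradation. The 7 DKD rats received the same injection and normal feed, and the 5 Sham rats received vehicle and normal feed. Streptozotocin or vehicle was given 7 days before grouping, and the kidneys were collected 14 days after it. Body weight and blood glucose were balanced between the diabetic groups. Both diabetic groups thus model chemically induced loss of insulin, and the labels used here give no age.

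Injured tubule cells lose transport functions and switch on a common set of genes. Havcr1 encodes KIM-1, a receptor on the lumen side of injured proximal tubule cells that lets them take up dying cells. Lcn2 encodes NGAL, an iron-siderophore carrier released by injured tubules and by neutrophils, and Spp1 encodes osteopontin, a secreted ligand of integrins and of CD44. Cells that fail to complete repair are known in mouse kidneys for expressing Vcam1, while Sox9 marks cells that enter repair.

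Each value below is a level: log2 of the processed Cy3 signal of the gene's brightest kept probe, minus the 75th percentile of its array. A level of 0 is thus as bright as that percentile, and levels of different genes cannot be compared, because probes differ in brightness. Differences are log2 differences between group means with the standard error (SE) of 1 limma fit over all genes and 19 arrays, and adjusted p-values are Benjamini-Hochberg values over the 24217 genes. A gene was called when its adjusted p was under 0.05. In RNA of whole cortex, fewer cells of a type and less RNA per cell cannot be told apart, nor can more cells and more RNA per cell.

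The set differed between diabetic and Sham cortex, with Havcr1, Il24, Spp1, Clu, Lcn2, Cd44 and Timp1 higher and Tff3 and Vcam1 lower in DKD rats, and it did not differ detectably between the diabetic groups. In DKD against Sham cortex 9 of 10 markers passed the test, 7 of them higher and 2 lower, whereas 17.1% of all genes tested passed (8.02% higher and 9.07% lower). Of the genes that passed 46.9% were higher, against 34.7% with normexp and quantile normalisation and 37.0% with quantile normalisation. The groups did not overlap for 6 higher markers and 1 lower one, against 4.85% and 5.83% of all genes. In DKD+enarodustat against DKD cortex 0 of 10 passed by limma, against 2% of all genes (1.07% higher and 0.933% lower), and 0 of 10 had an unadjusted p under 0.05. Between DKD+enarodustat and Sham cortex 9 of 10 passed, against 26.1% of all genes (10% higher and 16% lower). These 3 comparisons share groups, so they are not independent of each other. The markers were chosen with earlier results of these data known, so their counts beside the shares of all genes are a description, not a test. The median log2 difference of the 10 markers was 1.42 in DKD against Sham and 0.13 in DKD+enarodustat against DKD, and the median over all genes was -0.02 in each of these comparisons.

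The position of an array on its slide went with its group. All 7 DKD+enarodustat arrays lay in slide row 2, all 5 Sham arrays lay in row 1, and DKD had replicates 2 and 4 in row 2 and 5 arrays in row 1. Probes above background made up 54.4% to 62.9% of the probes on DKD+enarodustat arrays, 54.7% to 67.3% on DKD arrays and 61.0% to 66.8% on Sham arrays. DKD+enarodustat and Sham shared no row, so between them no row gives a value of its own. Kidney markers were present in every group. The proximal transporter Slc34a1 averaged 5.94 ± 0.13 in DKD+enarodustat rats, 5.97 ± 0.10 in DKD rats and 6.23 ± 0.11 in Sham rats (SD, n = 7, 7 and 5). Umod of the thick limb and Nphs1 of podocytes were above background on every array. These markers cannot tell cortex from whole kidney.

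**Figure D1:**
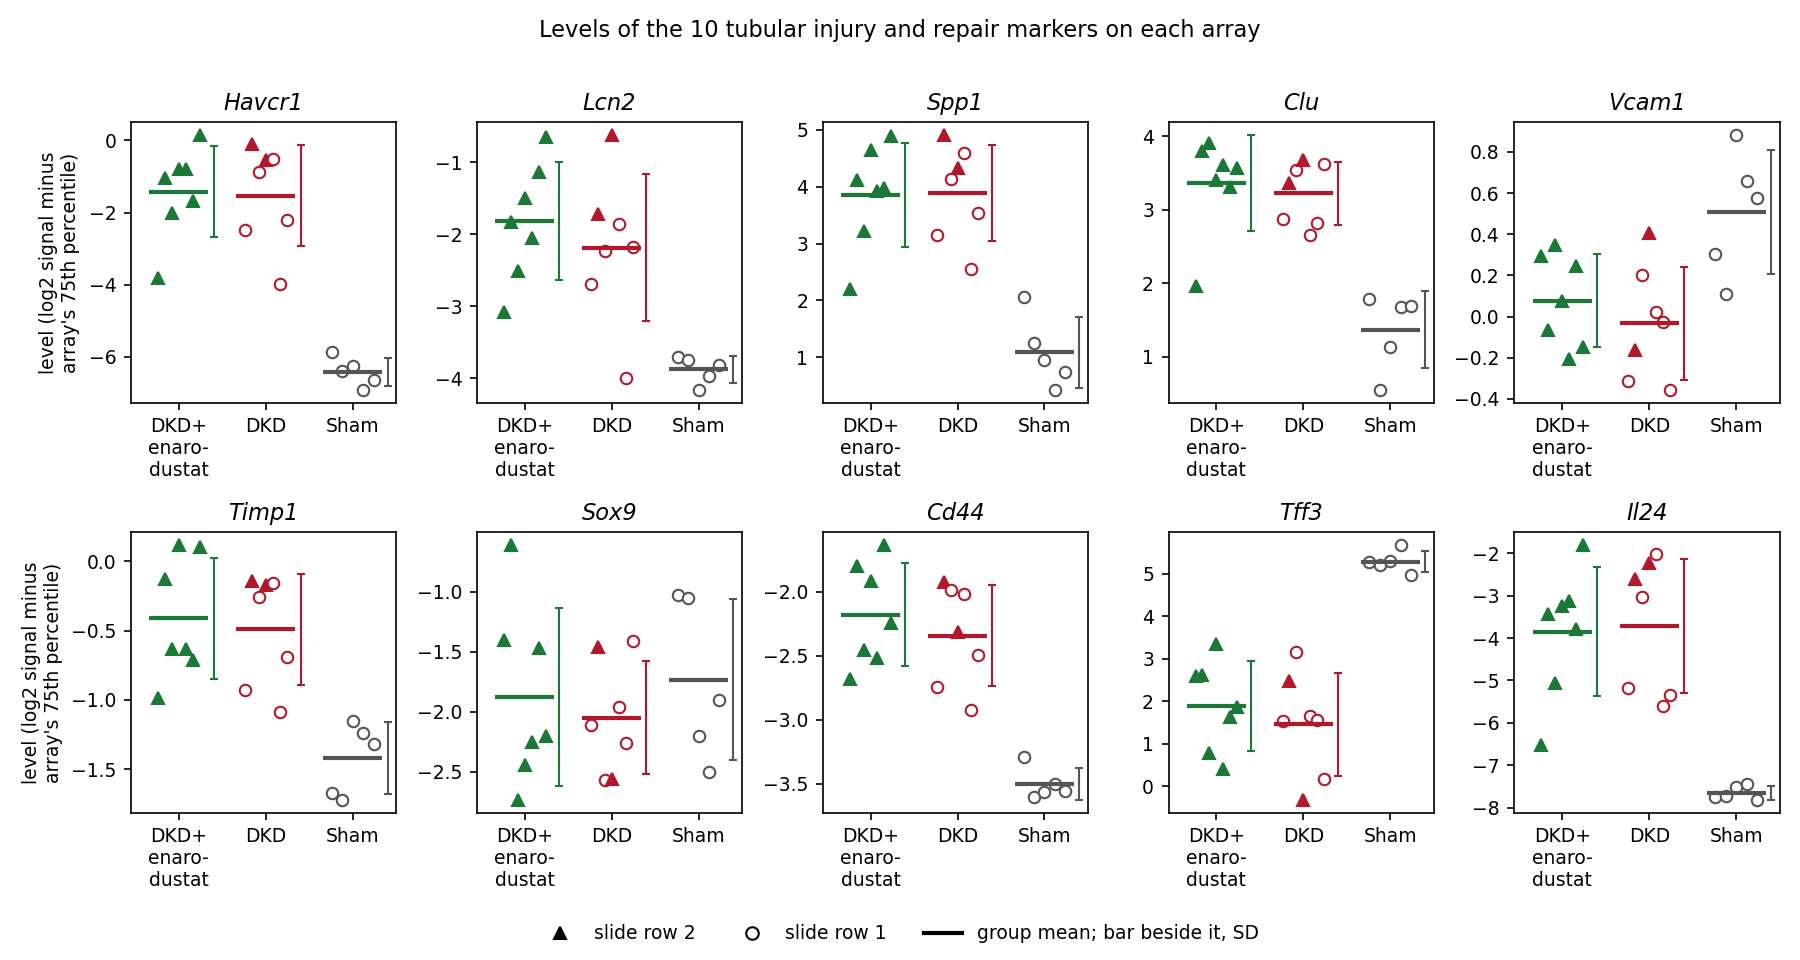
Level of each of the 10 markers on every array (log2 signal minus the array's 75th percentile), by group, with 1 point per rat; triangles are arrays of slide row 2, open circles arrays of row 1, horizontal lines group means and the bar beside each its SD. Havcr1, Il24, Spp1, Clu, Cd44 and Timp1 were higher on every DKD array than on any Sham array, Tff3 was lower on every one, and the DKD+enarodustat and DKD points overlap for all 10.

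Havcr1 rose in DKD cortex. Its level was -3.80, -1.04 and 0.15 (lowest, median and highest) in the 7 DKD+enarodustat rats. In the 7 DKD rats it was -3.97, -0.87 and -0.11. The 5 Sham rats had -5.87, -6.39, -6.26, -6.91 and -6.64. All diabetic rats lay above all Sham rats, and the spread among them was wide, with an SD of 1.26 in DKD+enarodustat and 1.40 in DKD rats, against 0.39 in Sham rats. The difference was 4.88 ± 0.65 in DKD against Sham (SE, n = 7 and 5, adjusted p = 5.62e-05), or 29.5-fold. The size depended on the background correction: it was 2.52 with normexp and quantile normalisation (adjusted p = 0.00112), and 2.26 in the authors' value table (adjusted p = 0.00104). Havcr1 had the largest rise of the 10 in the fit used here, but Spp1 exceeded it in both of these alternatives, at 2.71 and 2.46. DKD+enarodustat rats differed from DKD rats by 0.10 ± 0.59 (adjusted p = 0.986), with a 95% interval of -1.15 to 1.35; a change inside that interval was not detectable with these rats.

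The single Havcr1 probe lay at chr10:31857202-31857261 on the rn4 build of the scanner files. The bases upstream of the gene are printed because enarodustat acts on hypoxia-inducible factor, whose binding core is ACGTG or GCGTG. The core, in capitals, occurred once, 91 bases before the RefSeq start (build GRCr8, chr10:31629528-31629777, plus strand, 250 bases):
Havcr1: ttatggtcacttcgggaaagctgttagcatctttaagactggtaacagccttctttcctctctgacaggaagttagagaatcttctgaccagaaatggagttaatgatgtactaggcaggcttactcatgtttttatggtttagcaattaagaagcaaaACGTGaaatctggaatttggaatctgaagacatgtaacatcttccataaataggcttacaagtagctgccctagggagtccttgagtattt
The core was searched on both strands and was present in the same window of 36.7% of 33469 RefSeq promoters, and in 3 of the 8 markers whose promoter matched (Havcr1, Vcam1 and Cd44).

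Il24, a cytokine of the interleukin-10 family, was higher in DKD cortex. Its level was -6.53, -3.43 and -1.81 (lowest, median and highest) in DKD+enarodustat rats. In DKD rats it was -5.60, -3.04 and -2.01. Sham rats had -7.73, -7.72, -7.50, -7.44 and -7.81, close to the detection limit. Il24 was above background on 6 of 7 DKD+enarodustat arrays, 7 of 7 DKD arrays and 2 of 5 Sham arrays. The groups of diabetic rats overlapped each other and neither overlapped Sham. The fitted difference was 3.92 ± 0.75 in DKD against Sham (adjusted p = 0.00146), and its size is uncertain because 3 of 5 Sham arrays were not above background. The probe met the filter of 5 arrays through the diabetic arrays, where it is high. Its call and its place in the counts of markers carry that selection. With no filter on dim probes it also passed (adjusted p = 0.00249). Under normexp and quantile normalisation it was 1.28 (adjusted p = 0.0232). DKD+enarodustat rats differed from DKD rats by -0.14 ± 0.69 (adjusted p = 0.982). Its other probe was above background on 0 of 19 arrays, so the call rests on 1 probe. Of the genes that encode the receptor of the interleukin-20 family, which Il24 uses, Il20ra differed by 0.62 ± 0.33 in DKD against Sham (adjusted p = 0.231) and by -0.94 ± 0.30 in DKD+enarodustat against DKD (adjusted p = 0.123), and neither passed. The listed receptor genes Il20rb and Il22ra1 were above background on 2 and 0 of 19 arrays and were not tested.

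Lcn2 also rose, with 1 DKD rat inside the Sham range and a call that rested in part on the 2 DKD rats of slide row 2. Its level was -3.08, -1.83 and -0.66 (lowest, median and highest) in DKD+enarodustat rats. In DKD rats it was -4.00, -2.17 and -0.62. Sham rats had -3.70, -3.74, -4.16, -3.97 and -3.81. DKD replicate 6, also the lowest DKD rat for Havcr1, lay among the Sham rats, and 6 of 7 DKD rats and 7 of 7 DKD+enarodustat rats lay above them all. The difference was 1.69 ± 0.45 in DKD against Sham (adjusted p = 0.0148). Without the 2 DKD arrays of row 2 the difference was 1.29 and did not pass (adjusted p = 0.0581). Because all Sham arrays lay in row 1, a covariate for slide row gave the same 1.29 by design (adjusted p = 0.0591). Row 1 alone gave it too, and there it passed (adjusted p = 0.0408). These fits are not separate checks, and slide row cannot be told apart from the 2 rats in row 2. Lcn2 also passed in the authors' value table (adjusted p = 0.0126). DKD+enarodustat rats differed from DKD rats by 0.37 ± 0.41 (adjusted p = 0.818).

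Lcn2 is also a neutrophil granule protein, so markers of other cells were read beside it. Of 15 neutrophil and macrophage markers tested, 3 rose and 0 fell in DKD against Sham. Of all genes 17.1% passed there, 8.02% higher and 9.07% lower. The median difference of the 15 markers was 0.02. Lysozyme Lyz2 rose by 0.57 ± 0.16 (adjusted p = 0.0172) and the receptor Csf1r by 0.43 ± 0.14 (adjusted p = 0.0433). Cd163 of scavenging macrophages was above background on 6 DKD and 0 Sham arrays, so no size is given. It met the filter only through diabetic arrays, so its call is no independent support. Their summed level was 4.91 to 5.98 in DKD+enarodustat, 4.79 to 5.52 in DKD and 4.55 to 4.84 in Sham rats. Among the neutrophil markers, S100a9, S100a8 and Csf3r were above background on 19, 17 and 15 of 19 arrays, and Mpo and Cxcr2 on 8 and 1. S100a9, S100a8, Csf3r and Mpo did not pass in DKD against Sham, and Cxcr2 was not tested. Adipocyte markers, of which 3 of 8 rose and 0 fell, summed to 4.03 and 4.30 in DKD replicates 2 and 4, the DKD rats of slide row 2, and to 2.14 to 2.74 in the other DKD rats. In the 7 DKD+enarodustat rats, all of row 2 as well, they summed to 1.87 to 3.30. Of 10 lymphocyte markers limma called 0, with 2 at an unadjusted p under 0.05. The part of these cells in the Lcn2 difference was not tested.

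The NF-kB letters, GGG, then 5 bases of any kind, then CC, occur upstream of both Lcn2 and Vcam1, which moved in opposite directions, so both stretches are printed. In the 250 bases before the RefSeq start, capitals mark each match on either strand, with overlapping matches run together; Lcn2 held 3 matches and Vcam1 held 3, and in Vcam1 the capitals also mark ACGTG and TATAAA, joined with its reverse complement (build GRCr8; Lcn2 chr3:36081781-36082030, minus strand; Vcam1 chr2:206742784-206743033, minus strand):
Lcn2: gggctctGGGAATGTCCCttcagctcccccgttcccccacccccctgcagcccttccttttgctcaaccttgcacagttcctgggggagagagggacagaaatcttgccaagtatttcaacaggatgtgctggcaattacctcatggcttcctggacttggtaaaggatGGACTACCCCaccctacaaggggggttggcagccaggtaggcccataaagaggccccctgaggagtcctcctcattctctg
Vcam1: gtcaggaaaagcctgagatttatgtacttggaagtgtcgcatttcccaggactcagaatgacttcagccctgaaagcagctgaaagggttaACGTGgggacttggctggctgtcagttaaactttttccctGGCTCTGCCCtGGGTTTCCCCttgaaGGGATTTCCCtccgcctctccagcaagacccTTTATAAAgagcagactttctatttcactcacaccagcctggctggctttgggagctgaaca
The letters were present in 42.3% of all 33469 promoters and in 4 of the 8 markers with a promoter. The others were Timp1 with 4 matches, some of them overlapping, and Cd44 with 2.

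Clu and Spp1, both secreted by stressed tubule cells, rose in DKD cortex. Clusterin, encoded by Clu, is an extracellular chaperone. Its level was 1.96, 3.57 and 3.91 (lowest, median and highest) in DKD+enarodustat rats. In DKD rats it was 2.66, 3.36 and 3.68. Sham rats had 1.78, 0.55, 1.13, 1.68 and 1.68. All diabetic rats exceeded all Sham rats, and DKD+enarodustat replicate 1 stood well under the 6 other treated rats. The difference was 1.86 ± 0.31 in DKD against Sham (adjusted p = 0.000391), and 0.14 ± 0.28 in DKD+enarodustat against DKD (adjusted p = 0.925).

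Spp1 was at 2.20, 3.98 and 4.89 (lowest, median and highest) in DKD+enarodustat rats. DKD rats had 2.56, 4.14 and 4.91. Sham rats had 2.07, 1.25, 0.95, 0.43 and 0.74. The diabetic groups did not overlap with Sham, although the lowest DKD+enarodustat rat, at 2.20, lay just above Sham replicate 1, at 2.07. The difference was 2.80 ± 0.46 in DKD against Sham (adjusted p = 0.000376), or 6.98-fold, and -0.04 ± 0.42 in DKD+enarodustat against DKD (adjusted p = 0.994). Spp1 was printed in 10 spots per array, whose SD had a median of 0.05, against an SD between rats of 0.91 in DKD+enarodustat, 0.84 in DKD and 0.63 in Sham rats.

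Cd44, the hyaluronan and osteopontin receptor that appears on regenerating tubules, rose with Spp1. Its level was -2.69, -2.25 and -1.64 (lowest, median and highest) in DKD+enarodustat rats. In DKD rats it was -2.92, -2.31 and -1.93. Sham rats lay close together at -3.29, -3.60, -3.57, -3.50 and -3.55. No diabetic rat fell into the Sham range. The difference was 1.16 ± 0.20 in DKD against Sham (adjusted p = 0.000558), and 0.72 in the authors' table (adjusted p = 0.000701). A dimmer Cd44 probe, above background on all 19 arrays, differed by 1.27 ± 0.22 and passed among all probes (adjusted p = 0.000673). The dimmest was above background on only 2 of 5 Sham arrays. DKD+enarodustat rats differed from DKD rats by 0.16 ± 0.18 (adjusted p = 0.806).

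Vcam1 and Timp1, an adhesion receptor for leukocytes and a secreted inhibitor of matrix proteases, moved in opposite directions. Vcam1 was at -0.21, 0.08 and 0.35 (lowest, median and highest) in DKD+enarodustat rats. DKD rats had -0.36, -0.02 and 0.41. Sham rats had 0.31, 0.11, 0.88, 0.66 and 0.58. The groups overlapped, with 5 of 7 DKD rats below the lowest Sham rat. Vcam1 fell by 0.54 ± 0.15 in DKD against Sham (adjusted p = 0.0195), a call that ended without Sham replicate 3 (adjusted p = 0.0675) or Sham replicate 4 (adjusted p = 0.0526). DKD+enarodustat rats differed from DKD rats by 0.11 ± 0.14 (adjusted p = 0.846). Icam1, the related adhesion receptor, rose by 0.76 ± 0.12 in DKD against Sham (adjusted p = 0.00023).

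Timp1 was at -0.99, -0.63 and 0.12 (lowest, median and highest) in DKD+enarodustat rats. DKD rats had -1.09, -0.26 and -0.14. Sham rats had -1.67, -1.72, -1.15, -1.24 and -1.32. DKD replicate 6 lay just above the highest Sham rat and the groups did not overlap. The difference was 0.93 ± 0.22 in DKD against Sham (adjusted p = 0.00652), and 0.08 ± 0.20 in DKD+enarodustat against DKD (adjusted p = 0.948). Its 10 spots per array had a median SD of 0.05, against 0.40 between DKD rats. Mmp9, a matrix protease that Timp1 inhibits, was above background on 0 DKD+enarodustat, 1 DKD and 5 Sham arrays. It was lower in DKD than in Sham rats (adjusted p = 0.00155), with no size given because 6 of 7 DKD arrays were not above background. Mmp9 met the filter through the Sham arrays, where it is high, so its call is no independent support.

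Sox9 was the marker that passed in no comparison. Its level was -2.74, -2.21 and -0.61 (lowest, median and highest) in DKD+enarodustat rats. In DKD rats it was -2.57, -2.11 and -1.41. Sham rats had -1.02, -1.05, -2.20, -2.50 and -1.90. The ranges of the 3 groups overlapped. Levels also differed between slides: on slide 1 the means were -1.01 in DKD+enarodustat, -1.79 in DKD and -1.04 in Sham rats (n = 2 each), on slide 2 they were -2.59, -2.56 and -2.35, and on slide 3 they were -1.97, -1.88 and -1.90 (n = 3, 3 and 1). The difference was -0.31 ± 0.36 in DKD against Sham (adjusted p = 0.648), with a 95% interval of -1.06 to 0.43. The other 3 Sox9 probes differed by -0.03 ± 0.62, -0.36 ± 0.23 and -0.16 ± 0.20, and none passed (adjusted p = 0.99, 0.336 and 0.689).

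Tff3 had the largest fall of the 10. It encodes a trefoil peptide, secreted by mucosal and tubular epithelium and linked to epithelial restitution. Its level was 0.40, 1.87 and 3.35 (lowest, median and highest) in DKD+enarodustat rats. In DKD rats it was -0.32, 1.56 and 3.16. Sham rats had 5.29, 5.21, 5.30, 5.67 and 4.96. All diabetic rats lay below all Sham rats: the highest diabetic rat had 3.35 and the lowest Sham rat 4.96. Tff3 fell by 3.83 ± 0.56 in DKD against Sham (adjusted p = 0.000125), a 14.2-fold lower signal. DKD+enarodustat rats differed from DKD rats by 0.43 ± 0.51 (adjusted p = 0.828).

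The promoters of Tff3 and Il24 are printed together because Tff3 fell and Il24 rose while both hold the STAT letters TTCNNNGAA in the same form. Capitals mark the match, 70 bases before the start in Tff3 and 152 in Il24, and TATAAA, 23 bases before the start of Tff3 (250 bases upstream, build GRCr8; Tff3 chr20:9199334-9199583, minus strand; Il24 chr13:44910761-44911010, minus strand):
Tff3: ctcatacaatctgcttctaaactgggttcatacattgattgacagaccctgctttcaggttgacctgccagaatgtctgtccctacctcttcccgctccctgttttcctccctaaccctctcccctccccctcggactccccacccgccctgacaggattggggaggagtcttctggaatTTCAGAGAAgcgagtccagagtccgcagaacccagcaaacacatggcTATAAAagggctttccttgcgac
Il24: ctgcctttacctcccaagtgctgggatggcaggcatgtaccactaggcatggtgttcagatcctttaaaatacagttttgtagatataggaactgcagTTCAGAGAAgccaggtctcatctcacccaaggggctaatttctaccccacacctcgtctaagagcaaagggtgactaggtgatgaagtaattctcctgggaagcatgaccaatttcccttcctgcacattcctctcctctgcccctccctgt
The letters, a palindrome, were present in 7.67% of all 33469 promoters, and TATAAA on either strand in 12.9%. No AP-1 letters (TGANTCA, found in 6.34% of promoters) were in the windows of the 8 markers. The probes behind 4 of the values above are printed to show what was measured. The files place them on rn4 at chr20:9471911-9471970 for Tff3, chr15:45404688-45404747 for Clu and chrX:12542700-12543703 for Timp1, whose 60 bases thus cross a splice junction; the Spp1 probe is listed as unmapped, and annotation of exons on rn4 was not used here. No capitals are set.
Tff3 probe: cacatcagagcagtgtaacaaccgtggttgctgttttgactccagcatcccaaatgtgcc
Clu probe: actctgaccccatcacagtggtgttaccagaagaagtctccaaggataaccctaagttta
Timp1 probe: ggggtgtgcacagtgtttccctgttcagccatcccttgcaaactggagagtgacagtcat
Spp1 probe: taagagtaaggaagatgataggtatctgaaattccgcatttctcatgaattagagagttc

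**Figure D2:**
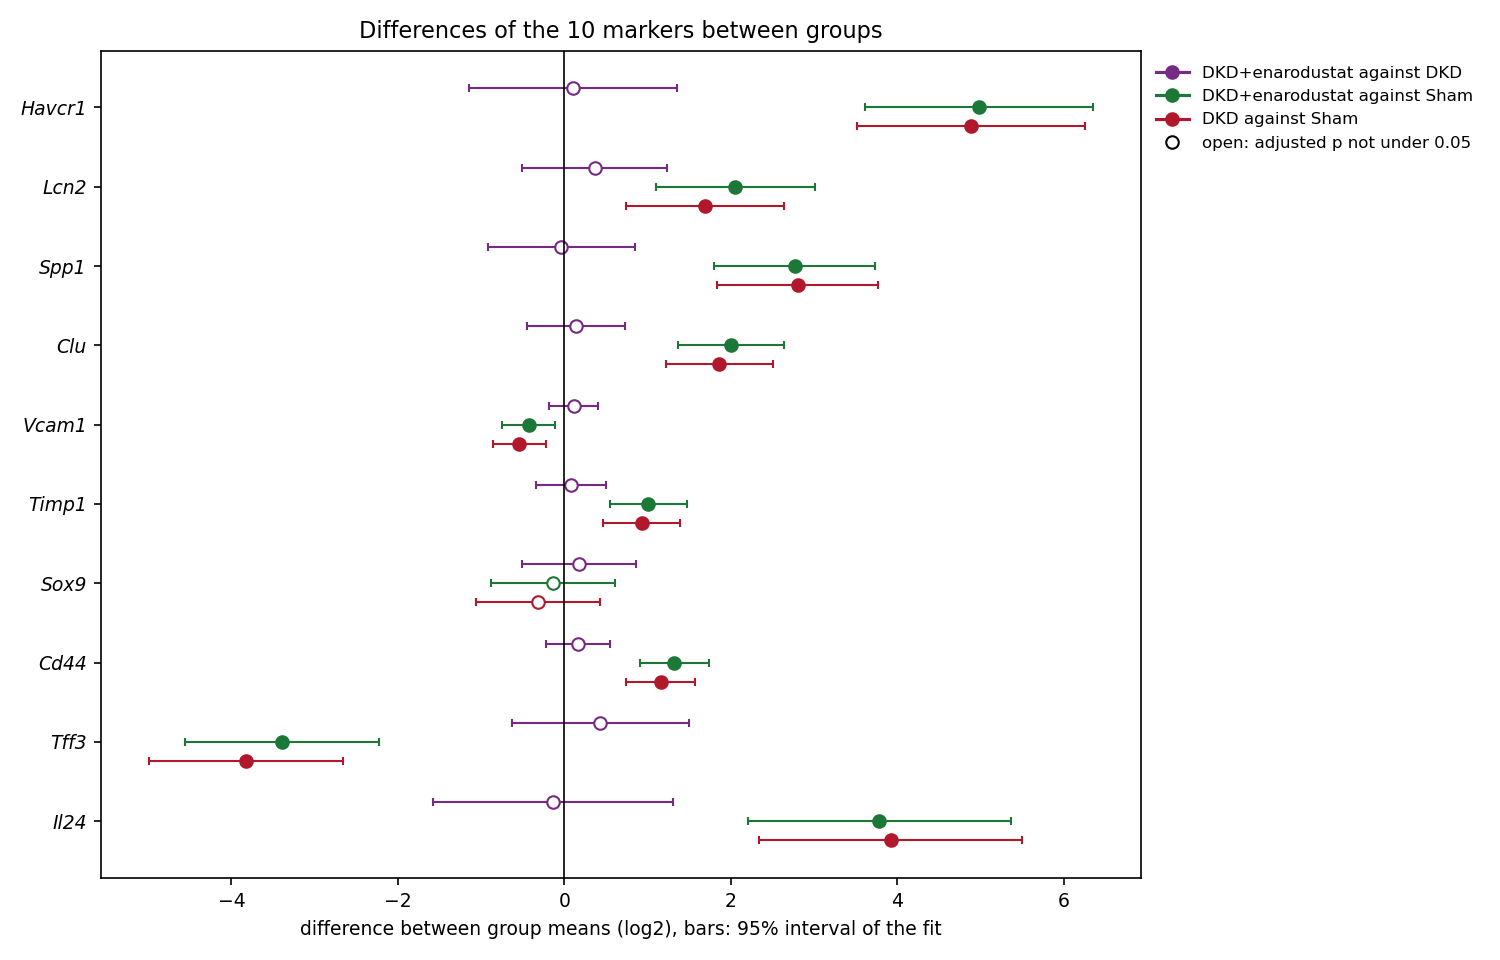
Log2 difference of each marker between groups, with the 95% interval of the fit; filled points have an adjusted p under 0.05. DKD+enarodustat against Sham and DKD against Sham lie side by side for each marker, from Havcr1 at 4.99 and 4.88 to Tff3 at -3.39 and -3.83, and all 10 intervals of DKD+enarodustat against DKD include 0.

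No marker passed in DKD+enarodustat against DKD. The 10 differences ran from -0.14 for Il24 to 0.43 for Tff3, and 8 of 10 were above 0. The intervals were narrowest for Vcam1 (-0.18 to 0.40) and Cd44 (-0.22 to 0.54), and widest for Il24 (-1.58 to 1.31) and Havcr1 (-1.15 to 1.35). Some signs changed within row 2, where the 7 treated rats meet 2 DKD rats, and slide row cannot be told apart from those 2 rats. There Havcr1 differed by -1.09, Il24 by -1.43, Spp1 by -0.77 and Lcn2 by -0.65, and none passed (adjusted p = 0.945, 0.936, 0.945 and 0.949). Within slide 3 (n = 3 each) Havcr1 differed by 1.45 and Lcn2 by 1.40 (adjusted p = 0.606 and 0.509).

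Against Sham, DKD+enarodustat rats had Havcr1 higher by 4.99 ± 0.65 (adjusted p = 2.65e-05), Spp1 by 2.77 ± 0.46 (adjusted p = 0.000253), Lcn2 by 2.06 ± 0.45 (adjusted p = 0.00266) and Cd44 by 1.32 ± 0.20 (adjusted p = 0.000101). Tff3 fell by 3.39 ± 0.56 (adjusted p = 0.000227) and Vcam1 by 0.43 ± 0.15 (adjusted p = 0.0446). The Vcam1 call ended when any 1 of Sham replicates 3, 4 and 5 or DKD+enarodustat replicates 2, 4, 5 and 7 was left out, with adjusted p-values of 0.0584 to 0.137. The groups did not overlap for 7 higher markers and 1 lower one, against 5.51% and 8.87% of all genes. With slide row as a covariate 0 of 10 passed in this comparison, with Havcr1 at 3.31 (adjusted p = 0.0889).

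Rats of a group differed widely, and several markers varied together from rat to rat. The low end was held by the same rats: DKD replicate 6 was lowest of the DKD rats for Havcr1, Il24, Lcn2, Spp1, Timp1 and Cd44, and DKD+enarodustat replicate 1 was lowest of the treated rats for the same 6 markers and for Clu. Tff3 did not follow, at 1.56 in DKD replicate 6 and 2.60 in DKD+enarodustat replicate 1, both inside the range of the other rats. Correlations of Havcr1 with the other 9 markers were computed within each diabetic group, 18 in all, with exact two-sided permutation tests and Benjamini-Hochberg adjustment over the 18. The pairings crossed slides and, in DKD rats, slide rows. The p-values are thus exact only if levels did not depend on slide or row.

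Across the 7 DKD rats, Havcr1 correlated with Spp1 at r = 0.985 and rho = 1 (exact permutation p = 0.0002, the smallest that 5040 pairings can give, adjusted p = 0.00179). With Timp1 it was r = 0.975 and rho = 1 (exact permutation p = 0.0002, adjusted p = 0.00179). Cd44 (r = 0.934, rho = 0.893), Il24 (r = 0.920, rho = 0.857) and Lcn2 (r = 0.857, rho = 0.857) also passed by r, at adjusted exact permutation p-values of 0.00929, 0.0125 and 0.0219. Without the 2 rats farthest from the Havcr1 median, r was 0.961 for Spp1, 0.980 for Timp1 and 0.931 for Il24, but 0.429 for Lcn2, so the Lcn2 relation rested on those rats. Clu, Vcam1, Sox9 and Tff3 did not pass, with r of 0.369, 0.398, 0.062 and 0.155.

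Across the 7 DKD+enarodustat rats, Havcr1 correlated with Il24 at r = 0.983 and rho = 0.964 (exact permutation p = 0.000397, adjusted p = 0.00238) and with Spp1 at r = 0.959 and rho = 0.893 (adjusted exact permutation p = 0.00625). Lcn2 (r = 0.825), Timp1 (r = 0.817) and Vcam1 (r = -0.774) passed by r, at adjusted exact permutation p-values of 0.0401, 0.0281 and 0.0443. Without the 2 farthest rats r was 0.229 for Lcn2, which again rested on those rats, 0.613 for Timp1 and -0.878 for Vcam1. Cd44, which passed in DKD rats, had r = 0.403 here; the difference between the groups was not tested. By rho 6 of 18 relations passed, against 10 of 18 by r. Each slide held 2 or 3 arrays per diabetic group, too few for a value within a slide. With slide means subtracted 7 of 18 had an adjusted p under 0.05. The pairings crossed slides, and values with slide means subtracted cannot be exchanged freely between slides. These p-values are therefore not exact, and the count is a description. After the subtraction r with Havcr1 was 0.994 for Spp1 and 0.992 for Timp1 in DKD rats, and 0.991 for Il24 in DKD+enarodustat rats. The 3 relations no longer under 0.05 were Lcn2 in DKD rats (r = 0.818, adjusted permutation p = 0.0508), and Lcn2 (r = 0.739, adjusted permutation p = 0.13) and Vcam1 (r = -0.865, adjusted permutation p = 0.0508) in DKD+enarodustat rats.

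**Figure D3:**
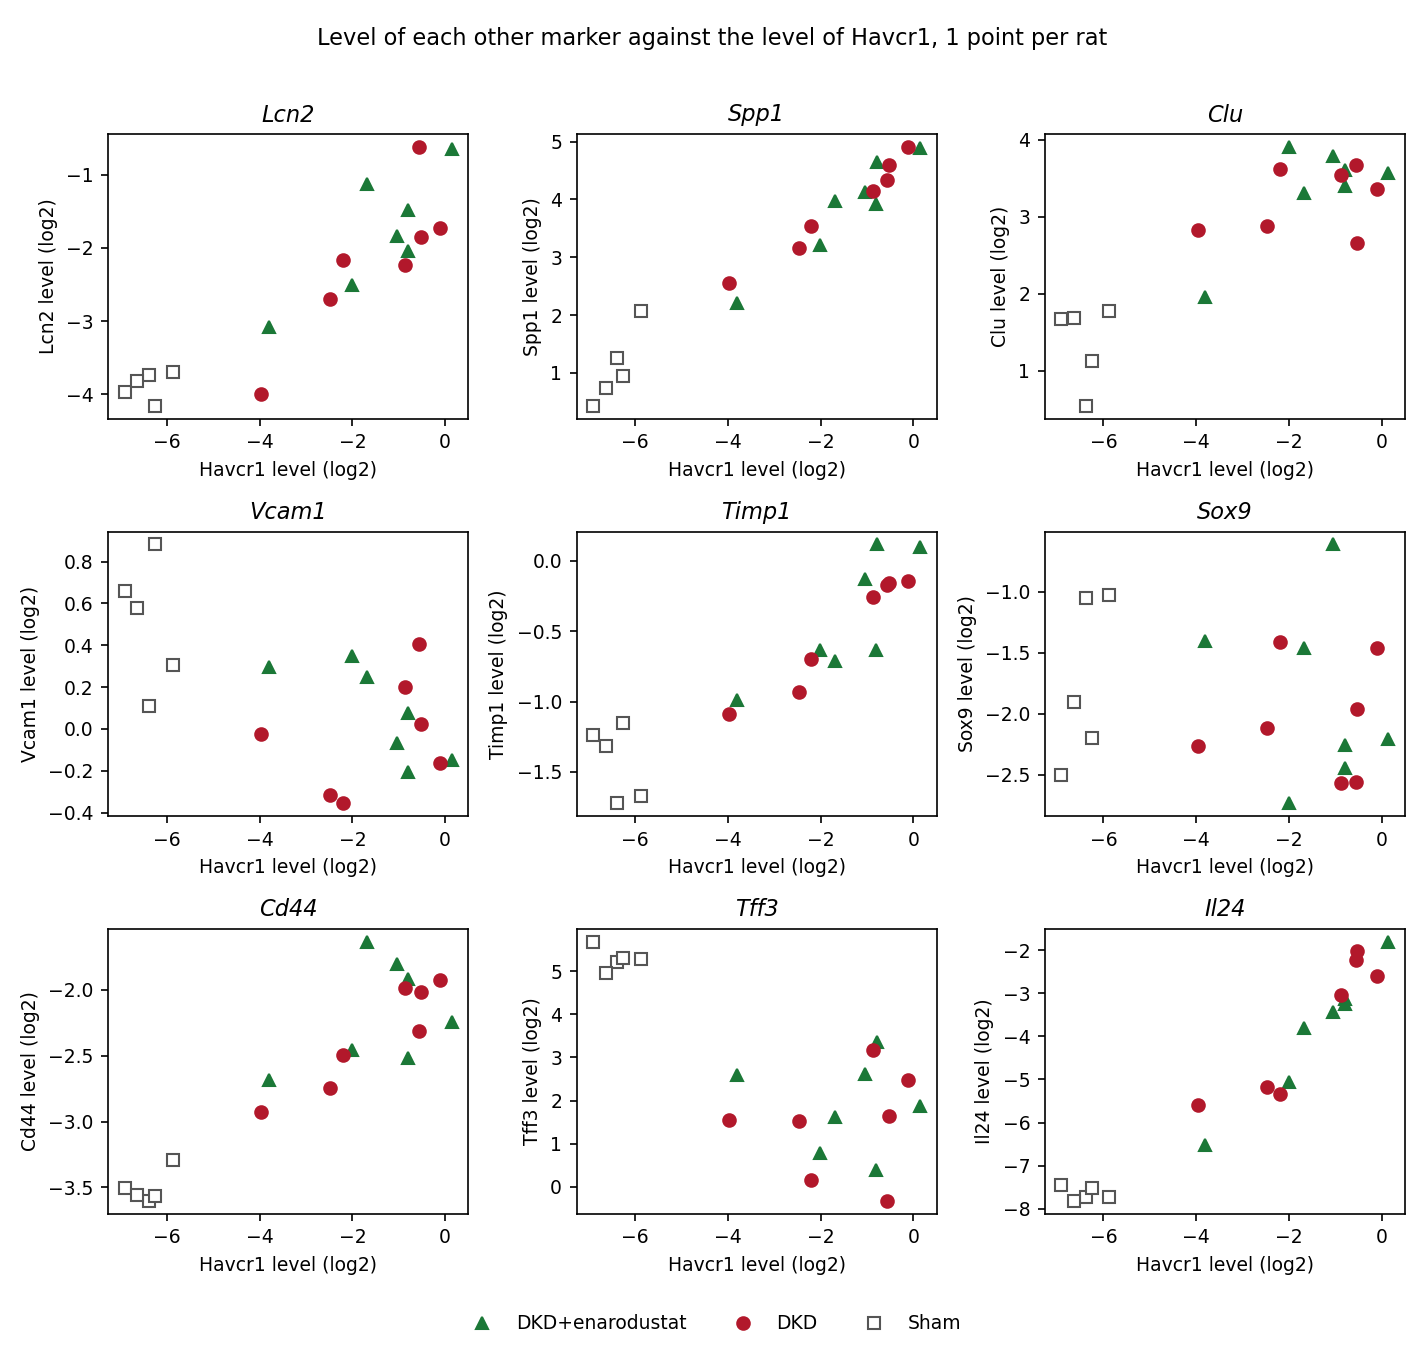
Level of each other marker against the level of Havcr1 (both log2 signal minus the array's 75th percentile), with 1 point per rat; triangles are DKD+enarodustat, filled circles DKD and open squares Sham rats. Spp1, Timp1 and Il24 climb with Havcr1 within both diabetic groups, whereas Tff3 and Sox9 scatter, with r of 0.155 and 0.062 in DKD rats.

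Genes with patterns most like 3 of the markers were taken by Pearson's r over all 19 arrays, as a description that includes the difference between groups. For Havcr1 they included the kininogen genes Kng2 and Kng1 (r = 0.962 and 0.950), Cd276 (r = 0.960) and Plk2 (r = 0.950). For Il24 they included Epdr1 (r = 0.975), the adrenergic receptor Adra1d (r = 0.955), Polr1g (r = 0.953) and Eppk1 (r = 0.943). For Tff3 they were Hnmt, which inactivates histamine (r = 0.959), the tubular transporters Slc22a2 and Slco1a1 (r = 0.959 and 0.958), Kcnt1 (r = 0.950) and Slc7a12 (r = 0.943). The 2 kininogens have closely similar sequences, so their signals may not be separate.

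Paralogs and partners of the markers were read from a list of 38 names, of which 28 were tested. In DKD against Sham 5 of 28 rose and 4 fell, where 8.02% of all genes were higher and 9.07% lower. The median difference of the 28 was 0.07. In DKD+enarodustat against DKD 0 of 28 passed by limma, against 2% of all genes, with 3 at an unadjusted p under 0.05. Both listed receptors of Lcn2 fell: Slc22a17 by 0.57 ± 0.08 (adjusted p = 7.97e-05) and Lrp2, the endocytic receptor megalin, by 0.62 ± 0.12 (adjusted p = 0.00199). Hyal1, a hyaluronidase that cleaves the ligand of CD44, rose by 1.86 ± 0.18 (adjusted p = 1.76e-06).

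Other genes known for tubular injury were read beside the markers. Their list, like the other lists here, was chosen with earlier results of these data known, so its counts are a description. Of 35 tested (of 38 listed), 17 rose and 1 fell in DKD against Sham, where 8.02% of all genes were higher and 9.07% lower. The median of the 35 was 0.57, and all genes had a median of -0.02. The p21 gene Cdkn1a, which stops the cell cycle, was higher by 3.33 ± 0.27 (adjusted p = 4.07e-07). The fibrinogen chain Fgb was higher by 3.28 ± 0.41 (adjusted p = 2.85e-05). S100a6, a calcium-binding protein, was higher by 0.85 ± 0.10 (adjusted p = 2.43e-05), and so was the epithelial keratin Krt8, by 0.81 ± 0.10 (adjusted p = 2.41e-05). Prom1, a stem and progenitor marker, was the 1 that fell, and is named after its values were seen, by 1.20 ± 0.22 (adjusted p = 0.000868). Of the 35, 1 passed in DKD+enarodustat against DKD, a count near the share of all genes that passed, 2%. It was Krt8, which fell by 0.37 ± 0.09 (adjusted p = 0.041). That call ended with the replicate number as a block, with arrays centred on the median, with no filter on dim probes, with only the groups compared and with slide row as a covariate, each of which left 0 of 35 passing. The chemokine Ccl2 differed by -0.52 ± 0.21 and Anxa2 by 0.25 ± 0.12 in that comparison, and neither passed (adjusted p = 0.276 and 0.337).

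**Figure D4:**
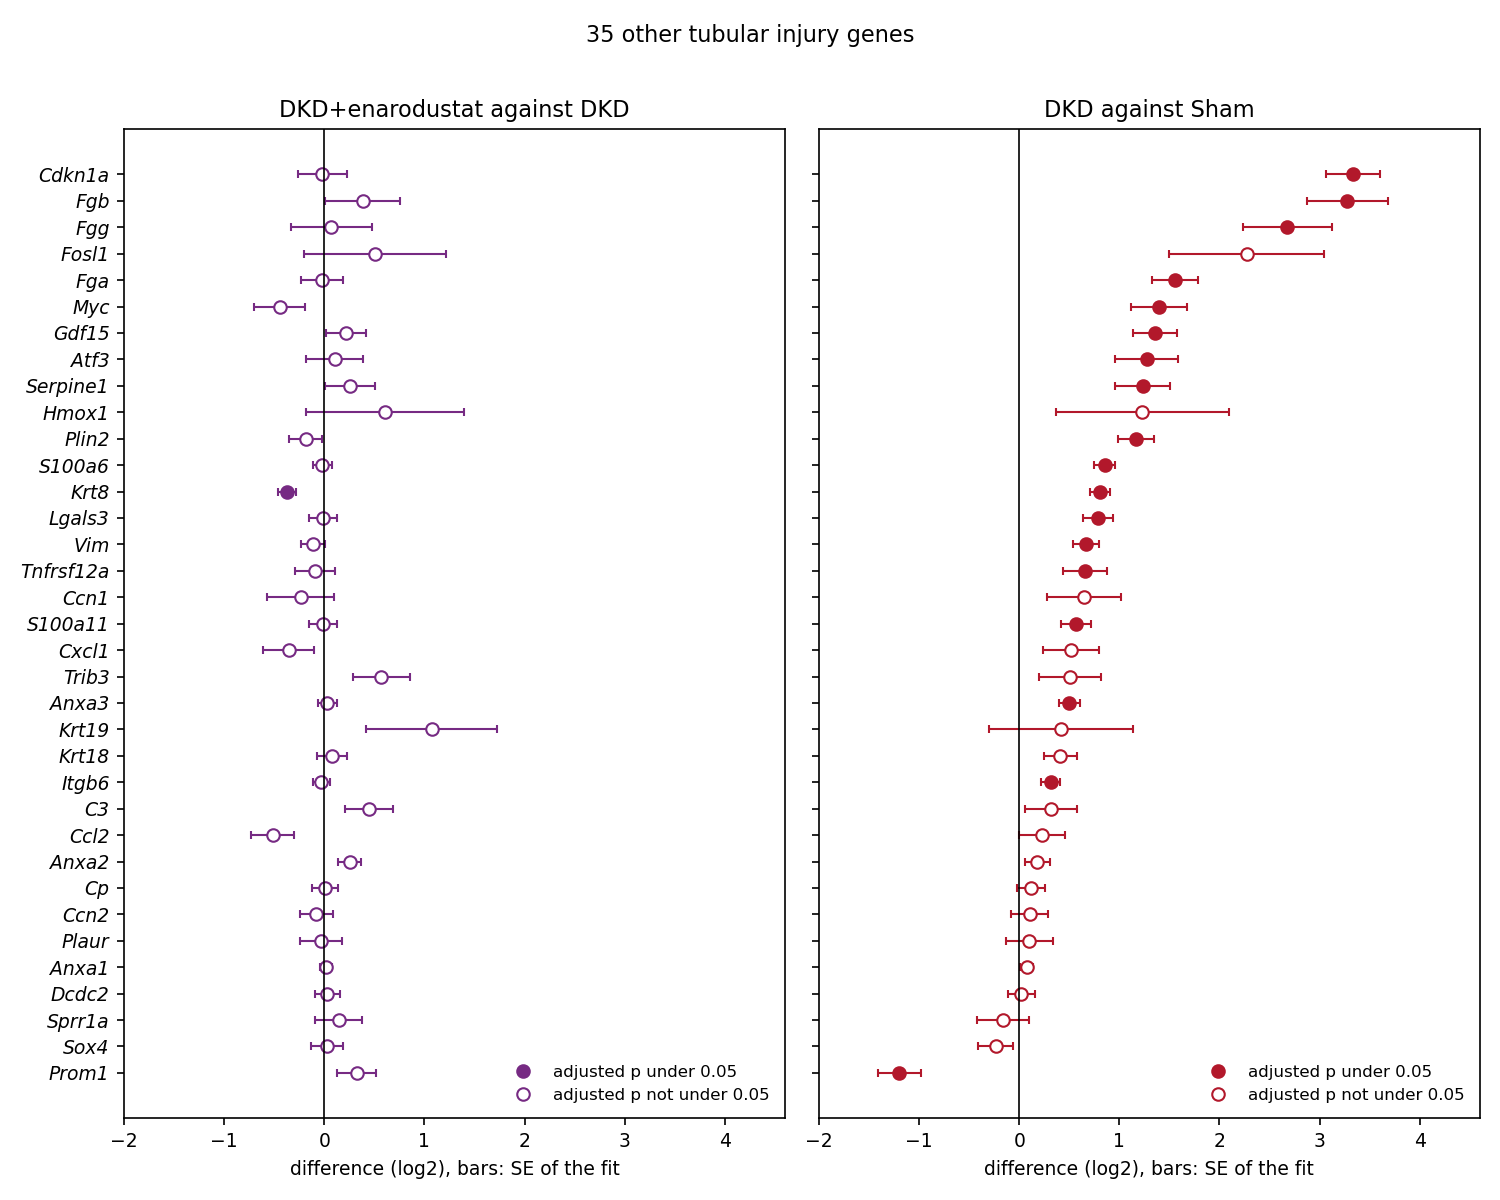
Log2 difference of 35 other tubular injury genes, in DKD+enarodustat against DKD on the left and DKD against Sham on the right, with bars for the SE of the fit and filled points for an adjusted p under 0.05. On the right 17 genes lie above 0 and pass and Prom1 passes below it, and on the left only Krt8 passes.

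Genes of the uninjured nephron were measured beside them. Of 20 proximal tubule markers 3 rose and 12 fell in DKD against Sham, with a median of -0.36, where 8.02% of all genes were higher and 9.07% lower: the organic cation transporter Slc22a2 fell by 2.00 ± 0.22 (adjusted p = 9.15e-06) and Gatm, of creatine synthesis, by 1.20 ± 0.20 (adjusted p = 0.000371). Pck1, of gluconeogenesis, rose by 1.17 ± 0.17 (adjusted p = 0.00013), as did the endocytic receptor Cubn, by 0.51 ± 0.08 (adjusted p = 0.000286). Of 11 thick limb and distal tubule markers 1 rose and 4 fell, among them Egf by 0.92 ± 0.12 (adjusted p = 3.99e-05) and Umod by 0.76 ± 0.17 (adjusted p = 0.00399). In DKD+enarodustat against DKD 0 of 20 and 0 of 11 passed by limma, against 2% of all genes. In each list 1 had an unadjusted p under 0.05. With slide row as a covariate 8 rather than 12 proximal markers fell in DKD against Sham, and 1 of 20 rose in DKD+enarodustat against DKD.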

How the data were processed

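Each of 19 arrays measured renal cortex RNA of 1 rat; the labels call the rats of a group replicates. Per the file headers, the deposited scanner files hold processed single-colour intensity values from Agilent Feature Extraction 11.5.1.1, a version also given in the submitters' processing notes, with 62976 spots and probe positions on rn4. The authors also deposited a table of values on the log2 scale, with 22739 probes and 9 of the 10 members (without Il24); its column medians ran from 8.13 to 8.21, scale and centring are not stated, and its columns correlated at 0.9973 to 0.9993 with normexp and quantile normalised values.

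Control spots and outlier-flagged spots were left out, and log2 processed signal minus the 75th percentile of the 58717 non-control spots was averaged per probe name (45598). Probes above background on at least 5 of 19 arrays were kept, and the brightest stood for its gene (24217 genes). limma 3.58.1 in R 4.3.3 (with data.table, version 1.17.8) fitted 3 groups with 16 residual degrees of freedom and Benjamini-Hochberg adjustment over all genes; Python 3.11.15, numpy 2.4.6, scipy 1.17.1 and pandas 2.3.3 gave the exact tests. Scripts were tested on simulated data. The number of arrays limits the precision.

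The text names all 10 members and tissue markers. Per list it names up to 4 genes with the smallest adjusted p in DKD against Sham and up to 3 in DKD+enarodustat against DKD. It also names the 5 genes with the highest Pearson r to Havcr1, Tff3 and Il24 (members and bare identifiers left out). Prom1, Mpo, Cxcr2, S100a8, S100a9, Csf3r, Il20rb and Il22ra1 were added after their values were seen. Some genes that this rule selects are not reported here. The members and lists were chosen with earlier results of these data known. Promoters came from RefSeq (GRCr8), 8 of 10 matched.

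Same-numbered rats deviated together (r of 0.13 to 0.59, median 0.23, in 17 of 17 pairs over 0.1), but numbers coincide with slides: pairs of other numbers on 1 slide had a median of 0.25, and pairs on different slides -0.21. All arrays were scanned on 1 day. Alternatives covered background correction, scaling, filter, probe choice, slide, slide row, replicate block and leaving out each rat.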

Additional observations from a re-analysis of the deposited data

Results flagged for a closer look

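Clu stood apart in 1 rat. DKD+enarodustat replicate 1 had a level of 1.96, whereas the other 6 DKD+enarodustat rats had 3.31 to 3.91, and the gap took up 0.694 of the range of the group, above Dixon's 95% critical value of 0.568. It was 1 of 30 groups of rats and markers looked at, and chance marks about 1 in 20. The same rat was the lowest of its group for Havcr1, Il24, Lcn2, Spp1, Timp1 and Cd44.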

How the results depend on the processing

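In DKD against Sham the count of 10 markers called was 8 to 9 when each rat was left out in turn, and 0 within slides 1 and 2 (2 rats a group). Between DKD+enarodustat and Sham it was 8 to 9 without each rat, and 0 within slides 1 and 2, with slide row as a covariate, and with slide and slide row as covariates, the last chosen after seeing the data. For DKD+enarodustat and DKD it was 0 in all 32 settings. With the replicate block Havcr1 differed by 5.06 (adjusted p = 0.000351), Lcn2 by 1.68 (adjusted p = 0.026) and Vcam1 by -0.50 (adjusted p = 0.0126) in DKD against Sham, and the block changed no call of a marker. Of 18 correlations with Havcr1, 6 passed in the authors' value table, against 10. Signs turned only for values that had not passed. In DKD+enarodustat against DKD, with slide row as a covariate and within slide row 2 alike, the values were -1.09 for Havcr1, -0.65 for Lcn2, -0.15 for Clu, -0.0434 for Vcam1, -0.25 for Timp1 and -0.0592 for Cd44. With slide and slide row they were -1.21, -0.81, -0.21, -0.0037, -0.26 and -0.0535 for these. Within slide 1 they were -1.13 for Havcr1, -0.25 for Lcn2, -0.24 for Clu and -0.0206 for Timp1, and Sox9 was 0.0306 against Sham. Within slide 2 they were -0.68 for Havcr1, -0.57 for Lcn2, -0.091 for Vcam1, -0.042 for Timp1, -0.0277 for Sox9 and -0.0341 for Cd44. Within slide 3 they were 0.70 for Spp1, 1.41 for Il24 and -0.094 for Sox9. Without the DKD arrays of slide row 2 they were 0.26 for Spp1 and 0.38 for Il24. Without each rat in turn Havcr1 ran from -0.30 to 0.50, Il24 from -0.48 to 0.31, Spp1 from -0.26 to 0.24, Timp1 from -0.0181 to 0.18 and Sox9 from -0.0353 to 0.32, and Sox9 in DKD+enarodustat against Sham from -0.35 to 0.0392. For r with Havcr1, Tff3 had -0.0247 in DKD and 0.291 in DKD+enarodustat rats in the authors' table. With slide means subtracted Sox9 had 0.278 and Tff3 0.343 in DKD+enarodustat rats. Without the 2 farthest rats Clu had -0.273, Sox9 0.157 and Tff3 0.40 in DKD+enarodustat, and Clu -0.367 and Sox9 -0.297 in DKD rats. The Vcam1 call in DKD+enarodustat against Sham ended without 7 rats, each left out alone, when centred on the median (adjusted p = 0.0604) and with only the groups compared (adjusted p = 0.0533). Genes called in DKD+enarodustat against DKD numbered 485, against 291 centred on the median, 1770 in the authors' table, 284 with no filter, 915 with slide as a block, 84 with slide row as a covariate, 12 within slide row 2, 276 with only the groups compared, 242 with slide and slide row, 286 without DKD replicate 6, and 1, 0 and 0 within slides 1, 2 and 3. In DKD against Sham 4140 were called, against 0 and 2 within slides 1 and 2. For DKD+enarodustat and Sham 6311 were called, against 10744 with no filter, 14 and 46 within slides 1 and 2, 1031 with slide row and 1431 with slide and slide row. Of those called, the share higher in DKD+enarodustat against DKD was 53.4%, against 34.4% in the authors' table and 72.9% with no filter, and in DKD+enarodustat against Sham 38.5%, against 64.4% with no filter. The cause of these changes was not tested. Signal near background limits Il24, which was above it on 2 of 5 Sham arrays.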

Other observations

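Markers of other cells were read in DKD against Sham rats, where 17.1% of all genes passed. Of 10 collecting duct markers 2 rose and 1 fell, with the water channel Aqp2 higher by 0.61 ± 0.08 (adjusted p = 6.83e-05). Of 7 podocyte markers 0 rose and 2 fell, among them Nphs1, which encodes nephrin, by 0.44 ± 0.11 (adjusted p = 0.0128). Of 13 endothelial and stromal markers 1 rose, the matrix proteoglycan Dcn, by 0.88 ± 0.18 (adjusted p = 0.00255). Of 8 adipocyte markers 3 rose: Fabp4 by 3.58 ± 0.91 (adjusted p = 0.011), Cfd by 3.66 ± 1.16 (adjusted p = 0.037) and Lep (adjusted p = 0.011). Lep was above background on 4 of 7 DKD and 0 of 5 Sham arrays, so no size is given. It met the filter only through diabetic arrays, so its call is no independent support.

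Between DKD+enarodustat and DKD rats limma called 0 of 10 collecting duct, 0 of 7 podocyte, 0 of 13 endothelial and stromal and 0 of 8 adipocyte markers, with 2, 0, 3 and 0 of them at an unadjusted p under 0.05. Of all genes 2% were called in that comparison.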
